A study of Caenorhabditis elegans with 2 samples.

Results

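Regions recovered with the transcription factor SOX-4 were described at the 7 genes rpr-1, mrpr-1, srpr-1.1, srpr-1.2, srpr-2.1, srpr-2.2 and srpr-3, which encode the RNA subunits of RNase P, of RNase MRP and of the signal recognition particle (SRP). They are 7 of the 46890 genes annotated on the 6 nuclear chromosomes of Caenorhabditis elegans. The genes were chosen by name, with it already known that strong regions lay near them, so their regions are described and not tested. Every region within 1 kb of each gene was taken from 4 deposited lists. The material was whole late embryos of both sexes from strain OP517, collected 4 h after egg bleaching. This strain carries the mutation unc-119(tm4063) on chromosome III and the integrated transgene wgIs517, and the SOX-4 it expresses has a GFP-FLAG tag on its C-terminal end. An antibody to GFP was used for chromatin immunoprecipitation and sequencing (ChIP-seq). The data are 2 biological replicates with 1 library each, and all libraries form 1 group. Both carry the transgene, the tagged protein comes from that transgene, and cells of all embryonic tissues were mixed.

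RNase P is the enzyme that cuts the leader from the 5' end of precursor tRNAs. RNase MRP is a related enzyme with a part in the processing of ribosomal RNA. SRP binds ribosomes that are making secreted or membrane proteins and brings them to the endoplasmic reticulum. Each of these machines is built on a non-coding RNA, and in human cells these RNAs are transcribed by RNA polymerase III. There the RNase P and MRP RNA genes are driven from upstream of the gene, by a proximal sequence element and a TATA box.

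The 120 bases before mrpr-1 (chrII:7200113-7200232, plus strand) are shown because the strongest summit of that gene fell in them and because they hold a block that mrpr-1 shares with the gene of its sister enzyme, rpr-1. Sequences are from the RefSeq copy of WBcel235, the assembly also called ce11, and run 5' to 3' in the direction of transcription. Capitals mark the shared block of 11 bases, at positions -58 to -48 (-1 being the base before the gene), and a TATA run nearer to the gene.
mrpr-1 upstream: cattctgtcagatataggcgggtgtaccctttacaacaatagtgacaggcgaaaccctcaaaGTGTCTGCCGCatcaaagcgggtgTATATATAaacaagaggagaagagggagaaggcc

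The starts of the 5 SRP RNA genes are shown because the pooled summits of srpr-1.2 and srpr-2.2 fell in these bases and because they show which copies are near-identical. Each line holds 60 bases before the gene in lower case and then the first 30 bases of the gene in capitals. The lines come from chrIII:4379177-4379266 (minus strand), chrIII:4369408-4369497 (plus strand), chrIII:5211160-5211249 (plus strand), chrIII:5031679-5031768 (minus strand) and chrV:9293603-9293692 (minus strand), in the order printed.
srpr-1.1: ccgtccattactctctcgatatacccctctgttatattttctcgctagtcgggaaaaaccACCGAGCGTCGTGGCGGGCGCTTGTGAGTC
srpr-1.2: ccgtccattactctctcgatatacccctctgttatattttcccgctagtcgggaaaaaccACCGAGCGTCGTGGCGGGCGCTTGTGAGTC
srpr-2.1: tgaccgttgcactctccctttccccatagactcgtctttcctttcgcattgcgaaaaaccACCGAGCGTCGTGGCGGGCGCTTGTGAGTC
srpr-2.2: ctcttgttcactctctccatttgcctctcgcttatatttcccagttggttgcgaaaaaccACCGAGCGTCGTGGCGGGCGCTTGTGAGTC
srpr-3: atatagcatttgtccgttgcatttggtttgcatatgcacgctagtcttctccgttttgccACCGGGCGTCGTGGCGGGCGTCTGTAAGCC

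All 7 genes had a region of the thresholded list within 1 kb. The thresholded list holds the 668 regions that the authors kept, and these were the 668 strongest of the 30000 regions called on both libraries together (the pooled list), or 2.23% of them. For all annotated genes, a thresholded region lay within 1 kb of 1694 of 46890, or 3.61%. The genes were chosen for these regions, so the count of 7 of 7 is not read against that share. Strength is given as the signal of each region, the authors' own value from their peak calling, with a rank of 1 for the strongest region of a list. Signals are not scaled between lists and are compared only within one. Read counts are absent from the lists, which leaves library depth and the counting error of a signal unknown. In the thresholded list the signal ran between 130 and 1365, with a median of 177.

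The RNase P RNA gene rpr-1 had the strongest region of the 7. It lies on chromosome I from 13463955 to 13464207 on the plus strand, inside an intron of ints-8, which is on the opposite strand and encodes a subunit of the Integrator complex. The signal of its region was 592 in the pooled list (rank 20), 346 in replicate 1 (rank 20 of 30000) and 248 in replicate 2 (rank 27 of 30000). It stood near the top of each list. The pooled region spanned 319 bp from 13463798 to 13464116. Its summit was 10 bp inside the RNA gene, counted from the annotated 5' end, in the pooled list and in replicate 1, and 7 bp inside in replicate 2. The replicate summits were thus 3 bp apart. A second region lay over the 3' part of the gene, with its summit 211 bp from the 5' end in the pooled list. It had rank 702 and signal 128 there, just below the thresholded minimum, with rank 16425 in replicate 1 and rank 302 in replicate 2. The replicates therefore differed far more in the strength of this second region than in that of the first.

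The RNase MRP RNA gene mrpr-1 was next in strength. It occupies 7200233 to 7200418 of chromosome II on the plus strand, between genes, with pcrg-1 131 bp away on the same strand and E04F6.6 668 bp away on the opposite strand. Its region had a signal of 349 in the pooled list (rank 98), 164 in replicate 1 (rank 131) and 195 in replicate 2 (rank 58). Of the 7 genes, mrpr-1 and srpr-2.2 had a better rank in replicate 2 than in replicate 1. The summit lay before the gene in all lists, at -16 bp in the pooled list, -27 bp in replicate 1 and -7 bp in replicate 2. The pooled region was 179 bp wide, from 7200116 to 7200294. A second and weak region spanned the gene, with its summit close to the 3' end. It had rank 12463 in the pooled list, with its summit 6 bp past the gene, and rank 14514 in replicate 1, with its summit 177 bp from the 5' end, and none was listed in replicate 2. Counted from the 5' ends of the neighbouring genes, the pooled summit was at -332 bp for pcrg-1 and at -652 bp for E04F6.6.

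Among the SRP RNA genes, srpr-2.2 had the strongest region. This gene is at 5031410 to 5031708 of chromosome III on the minus strand, in an intron of the kinesin gene klp-6, which is on the opposite strand, and it overlaps the annotated non-coding RNA R144.16 on its own strand. A long non-coding RNA gene, R144.19, is 956 bp away. The signal was 270 in the pooled list (rank 161), 150 in replicate 1 (rank 166) and 138 in replicate 2 (rank 131). The ranks were close, but the summits were not. The summit was 5 bp inside the gene in the pooled list, 196 bp inside it in replicate 1 and at -1 bp, just before it, in replicate 2. The pooled summit also lay in an exon of R144.16, 114 bp from its 5' end, and 774 bp from the 5' end of klp-6. Replicate 1 also listed a second region with its summit at -26 bp, at a signal of 118 (rank 237), so both of its regions were among its strongest 668.

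Its near-identical partner srpr-2.1 occupies 5211220 to 5211518 of chromosome III on the plus strand, between genes, with ZC155.4 263 bp away on the opposite strand. The signal was 211 in the pooled list (rank 243), 116 in replicate 1 (rank 249) and 96.0 in replicate 2 (rank 257). These were the closest ranks of the 7 genes. The summit was 107 bp inside the gene in the pooled list, 106 bp in replicate 1 and 125 bp in replicate 2, so it lay in the gene body in all lists. Replicate 1 held a further region with its summit 314 bp from the 5' end, just past the gene, at rank 2582, and a region 766 bp from the gene at rank 5278. Among regions close to the limit of 1 kb, those just inside it were this replicate 1 region, a pooled region 835 bp from srpr-2.1 (rank 9391) and a replicate 2 region 805 bp from srpr-2.2 (rank 28769). The nearest outside it was a replicate 1 region 1200 bp from srpr-1.1 (rank 25669).

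The gene srpr-1.1 stood apart in the position of its region. It runs from 4378909 to 4379206 of chromosome III on the minus strand, 2 bp from pals-26, a gene on the opposite strand, and 115 bp from B0284.3 on the same strand. The signal was 187 in the pooled list (rank 306), 115 in replicate 1 (rank 253) and 73.4 in replicate 2 (rank 460). The summit was 402 bp from the 5' end in the pooled list, 406 bp in replicate 1 and 421 bp in replicate 2. Since the gene is 298 bp long, the pooled summit was 105 bp past its 3' end, and it fell in an exon of pals-26, 3650 bp from the 5' end of that gene. The strongest regions of replicate 1 (4378592 to 4379007) and replicate 2 (4378577 to 4378992) were 416 bp wide and overlapped the RNA gene. The thresholded region was 109 bp wide, lay 90 bp from the RNA gene and did not touch it. By another score that the authors gave each region, it ranked 667 of 668 in the thresholded list, whereas the regions of rpr-1, mrpr-1 and srpr-2.2 shared the top value. Its 109 bases (chrIII:4378711-4378819, minus strand) are shown because they are the thresholded region of this gene and, unlike the replicate regions, hold none of the RNA gene.
srpr-1.1 region: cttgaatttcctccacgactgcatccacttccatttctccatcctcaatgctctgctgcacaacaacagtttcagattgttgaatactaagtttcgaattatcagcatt

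Weaker regions covered the body of srpr-1.1. One had its summit 152 bp inside the gene at rank 6752 of the pooled list, and one had its summit 178 bp inside at rank 1399 of replicate 2. Another in replicate 2 had its summit at -44 bp, before the gene, at rank 8854. Replicate 1 listed no region with its summit in the gene. None of the regions with a summit inside or before this gene reached the thresholded list.

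The gene srpr-1.2 occupies 4369468 to 4369766 of chromosome III on the plus strand, in an intron of the choline kinase gene ckb-2 and on its strand. Its signal was 148 in the pooled list (rank 466), 89.5 in replicate 1 (rank 438) and 63.1 in replicate 2 (rank 695). The rank in replicate 2 fell outside the strongest 668 of that list. The summit was 20 bp inside the gene in the pooled list, 112 bp in replicate 1 and 3 bp in replicate 2. A second region further into the gene had its summit 223 bp from the 5' end at rank 922 of the pooled list and 208 bp from it at rank 1548 of replicate 2.

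The most divergent copy, srpr-3, had the weakest region. It lies at 9293334 to 9293632 of chromosome V on the minus strand, and the annotation gives a second non-coding RNA gene, F44A2.13, with almost the same ends on the same strand. The signal was 134 in the pooled list (rank 606), 73.4 in replicate 1 (rank 733) and 57.1 in replicate 2 (rank 957). It was in the thresholded list, near its minimum, and outside the strongest 668 of both replicates. The summit was 72 bp inside the gene in the pooled list, at -19 bp in replicate 1 and 106 bp inside the gene in replicate 2. Each list held 1 region at this gene.

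**Figure D1:**
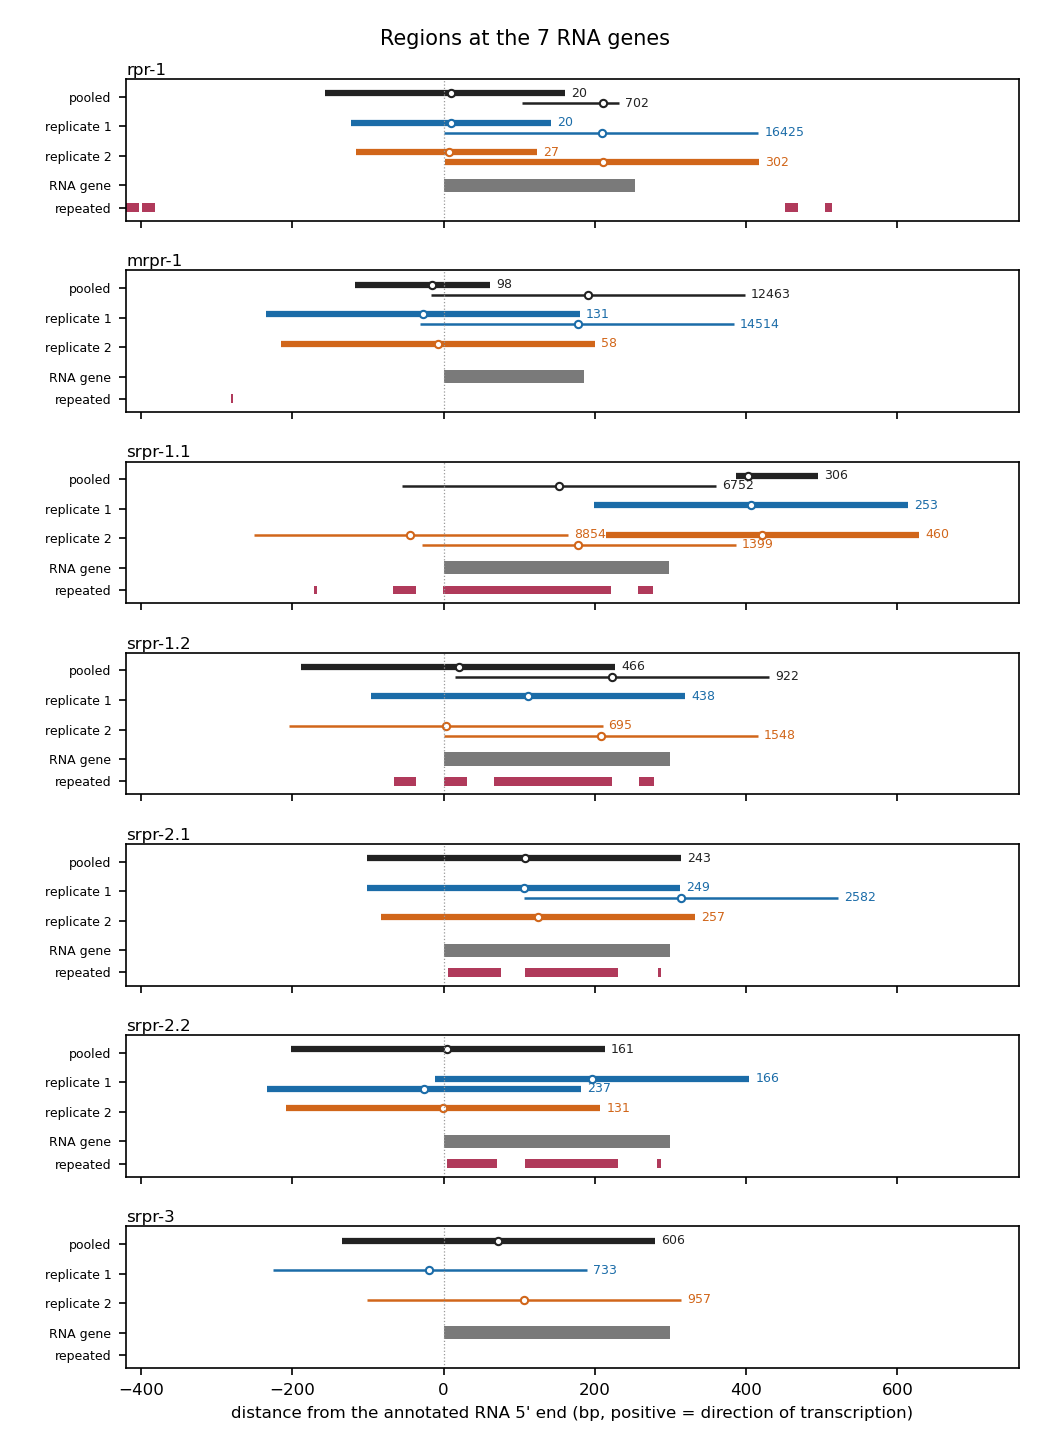
Map of the regions within 1 kb at each of the 7 RNA genes, with distance from the annotated RNA 5' end in bp on the horizontal axis. Lines are regions of the pooled list (black), replicate 1 (blue) and replicate 2 (orange), thick where the rank was 668 or better. Circles are summits, numbers are ranks, grey bars are the RNA genes, and crimson bars mark centres of 36-base windows that occur more than once in the genome. The strongest summits lie near the 5' end or in the body at 6 genes, and past the 3' end at srpr-1.1. The distant region of srpr-2.1 in the pooled list and in replicate 1 and that of srpr-2.2 in replicate 2 are beyond the drawn range.

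The order of the 7 genes by rank was the same in the pooled list, in replicate 1 and in replicate 2, namely rpr-1, mrpr-1, srpr-2.2, srpr-2.1, srpr-1.1, srpr-1.2 and srpr-3. By the authors' other score in the pooled list, the first 3 of these shared the highest value, although their signal ranks were 20, 98 and 161. In replicate 2 alone, srpr-2.2 had rank 647 by this score. In the pooled list srpr-2.1 had rank 284 by it, and the last 3 were reordered. There srpr-3 had rank 455, srpr-1.2 rank 468 and srpr-1.1 rank 976. The pooled list was called on the same libraries and is no further replicate. The replicate ranks spanned 20 to 27 for rpr-1, 58 to 131 for mrpr-1, 131 to 166 for srpr-2.2, 249 to 257 for srpr-2.1, 253 to 460 for srpr-1.1, 438 to 695 for srpr-1.2 and 733 to 957 for srpr-3. The spans of mrpr-1 and srpr-2.2 met at rank 131. Those of srpr-2.1 and srpr-1.1 overlapped, as did those of srpr-1.1 and srpr-1.2, although each pair had the same order within both replicates. With 2 libraries these differences were not tested. The spans of rpr-1 and mrpr-1, of srpr-2.2 and srpr-2.1, and of srpr-1.2 and srpr-3 were separate.

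**Figure D2:**
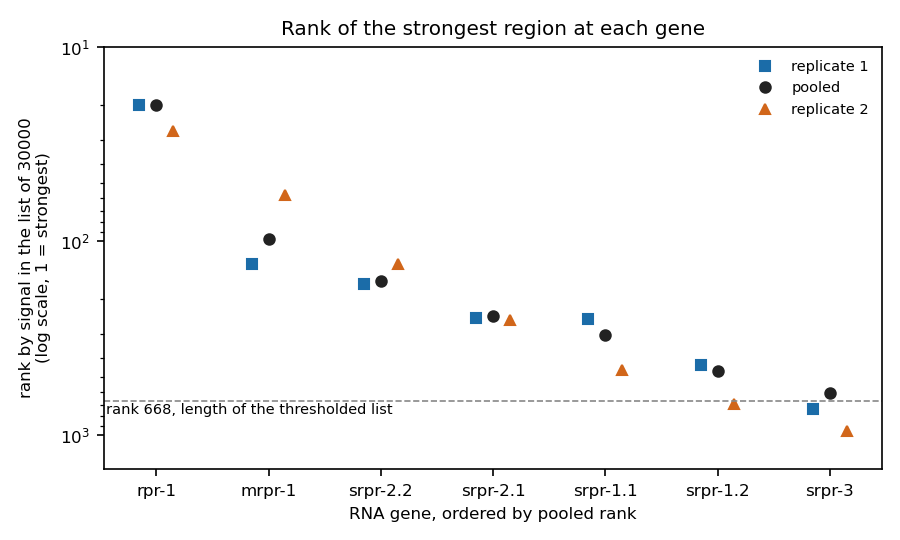
Rank of the strongest region within 1 kb of each RNA gene (vertical axis, log scale, 1 is strongest) in replicate 1 (squares), the pooled list (circles) and replicate 2 (triangles). The dashed line is at rank 668. The gene rpr-1 has ranks 20 and 27 in the replicates, and srpr-3 lies below the line in both.

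In both replicate lists, 5 of the 7 genes had a region among the strongest 668, the exceptions being srpr-1.2 and srpr-3. Of all thresholded regions, 419 of 668 (62.7%) did so. The replicate with the worse rank stood at 1.35 times the rank in the other replicate in the median of the 7 genes, and at 1.51 times over the 654 thresholded regions with a counterpart in both lists. This ratio was lowest at srpr-2.1 (1.03) and highest at mrpr-1 (2.26). Summits of the 2 replicates lay a median of 20 bp apart at the 7 genes and 23 bp apart over the 654 regions. They were at most 20 bp apart at rpr-1, mrpr-1, srpr-1.1 and srpr-2.1, or 4 of the 7, against 308 of 654 (47.1%). At srpr-1.2, srpr-3 and srpr-2.2 they were 109, 125 and 197 bp apart. By these measures the 7 genes were near the middle of the thresholded list, as a description without a test.

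Repeated sequence was counted because 4 of the SRP RNA genes are close copies of each other and because the treatment of reads with several matches was not stated by the authors in these sources. In a global alignment, srpr-2.1 and srpr-2.2 were identical at 99.0% of positions and srpr-1.1 and srpr-1.2 at 98.3%. Across these pairs identity was 94.0 to 94.3%. The fifth gene, srpr-3, was identical to the other 4 at 81.7 to 82.5% of positions. The 3 substitutions between srpr-2.1 and srpr-2.2, with positions counted from the 5' end and the srpr-2.1 base first, were T90C, G249A and G265A. The whole of srpr-2.1 (chrIII:5211220-5211518, plus strand) is shown with these 3 positions in capitals, since they are all that tells a read of one body from a read of the other.
srpr-2.1 gene: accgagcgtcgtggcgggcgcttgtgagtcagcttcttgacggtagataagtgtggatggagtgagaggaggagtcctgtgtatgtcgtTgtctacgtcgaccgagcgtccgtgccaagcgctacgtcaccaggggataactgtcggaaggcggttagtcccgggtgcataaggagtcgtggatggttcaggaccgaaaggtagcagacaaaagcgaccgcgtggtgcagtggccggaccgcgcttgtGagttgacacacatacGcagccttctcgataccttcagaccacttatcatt

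Windows of 36 bases with more than 1 exact copy in the genome, counted on both strands, made up 85.2% of the windows in srpr-1.1, 71.2% in srpr-1.2, 68.6% in srpr-2.1 and 67.0% in srpr-2.2. They made up 0% in rpr-1, mrpr-1 and srpr-3. With windows of 50 bases the shares were 76.7% in srpr-1.1, 58.8% in srpr-1.2, 61.2% in srpr-2.1 and 59.6% in srpr-2.2, and again 0% in the other 3 genes. The window sizes were chosen after the values were seen. The pooled ranks were 20 at rpr-1, 98 at mrpr-1 and 606 at srpr-3, the genes without repeated windows. They were 306 at srpr-1.1, 466 at srpr-1.2, 243 at srpr-2.1 and 161 at srpr-2.2.

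Inside the thresholded regions, the share of repeated 36-base windows was 53.8% at srpr-1.2, 52.0% at srpr-2.1 and 40.7% at srpr-2.2. It was 0% at srpr-1.1, rpr-1, mrpr-1 and srpr-3. The 36 bases at the pooled summit had 4 copies in the genome at srpr-1.2, 2 at srpr-2.2 and 1 at each of the other genes. For srpr-2.2, those at the strongest summit had 4 copies in replicate 1 and 1 in replicate 2. The body of srpr-1.1 held the most repeated sequence of the 7, and its thresholded region lay outside that body, in sequence with 0 of 74 windows repeated. The pair srpr-1.1 and srpr-1.2 also shared upstream sequence, with 81.0% identity over 150 bp and a longest common run of 65 bases, while srpr-2.1 and srpr-2.2 were 52.9% identical there with a longest run of 12 bases. The replicate summits were 15 bp apart at srpr-1.1, 109 bp at srpr-1.2, 19 bp at srpr-2.1 and 197 bp at srpr-2.2. At the genes without repeated windows they were 3 bp (rpr-1), 20 bp (mrpr-1) and 125 bp (srpr-3) apart. The part of repeated sequence in the positions and strengths of these regions was not tested.

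Within 1 kb of the 7 genes there was no other tRNA, snoRNA, snRNA, rRNA or miRNA gene. The nearest of these was 6825 bp away, at srpr-1.2, and the farthest 49748 bp away, at rpr-1. A thresholded region lay within 1 kb of 38.2% of tRNA genes (234 of 612), 19.4% of snoRNA genes (67 of 346), 7.75% of snRNA genes (10 of 129), 4.99% of other non-coding RNA genes (387 of 7757) and 4.25% of protein-coding genes (848 of 19973). The Wilson 95% intervals of these shares, which cover counting error only, were 34.5 to 42.1% for tRNA, 15.5 to 23.9% for snoRNA and 4.26 to 13.7% for snRNA genes. As the 7 genes were picked by their regions, they were not set against these shares.

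In strength, the 7 regions were close in median to those at snRNA and tRNA genes and below those at snoRNA genes. Their median signal was 211 (range 134 to 592). It was 214 for the 8 regions within 200 bp of snRNA genes (148 to 535), 365 for the 56 regions at snoRNA genes (135 to 1365) and 218 for the 183 regions at tRNA genes (130 to 906). The region of rpr-1 was stronger than each of the 8 at snRNA genes. The strongest at snRNA genes were 535 at WBGene00014543 (rank 31), 1 of 14 genes annotated with the symbol R07E5.16, then 369 at sls-2.4 (rank 86) and 314 at sls-2.1 (rank 124). The sls genes encode spliced leader RNA, which is joined to the start of many worm mRNAs. Regions at snoRNA genes, whose RNAs guide the modification of other RNAs, headed the whole list, with 1365 at C51F7.3 (rank 1), 1278 at W03C9.9 (rank 2) and 1051 at ZK994.7 (rank 3). The strongest at tRNA genes had signals of 906 at WBGene00000308 (rank 7), 616 at WBGene00014524 (rank 17) and 582 at WBGene00022955 (rank 21).

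**Figure D3:**
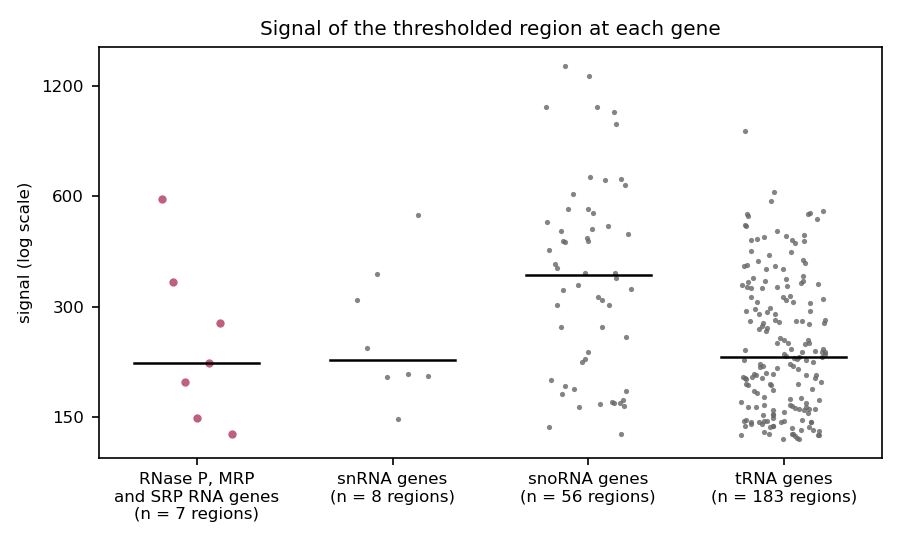
Signal (log scale) of the thresholded region at each of the 7 RNA genes and of thresholded regions within 200 bp of snRNA, snoRNA and tRNA genes. Each point is a region and bars are medians, at 211 for the 7 genes and at 214, 365 and 218 for the other classes.

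Pooled summits at the 7 genes had a median of 20 bp inside the gene, counted from the annotated 5' end, and quartiles of 7.5 and 89.5 bp inside. Of the 668 thresholded regions, 524 had a common width of 416 bp, and 78.4% had their summit at the region centre. Both were true of the regions of srpr-1.2, srpr-2.1, srpr-2.2 and srpr-3. In the replicate lists 99.7% of summits were at the region centre. This median was 106 bp in replicate 1 alone and 7 bp in replicate 2 alone. The pooled summit was at most 30 bp from the 5' end in 4 of the 7 (57.1%), namely rpr-1, mrpr-1, srpr-1.2 and srpr-2.2. In replicate 1 alone 3 of the 7 were that close, with srpr-1.2 at 112 bp and srpr-2.2 at 196 bp, and in replicate 2 alone 4 of the 7 were. For tRNA genes with a thresholded region within 200 bp, the median was 14 bp inside the gene and 54.2% of 203 were at most 30 bp away. For snRNA genes the median was 1.5 bp inside and 37.5% of 8 were that close. At snoRNA genes the median summit was before the gene, at -43 bp, and 17.2% of 58 were that close. Only mrpr-1 of the 7 had a pooled summit before its gene, at -16 bp. These positions were compared as descriptions, without a test.

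**Figure D4:**
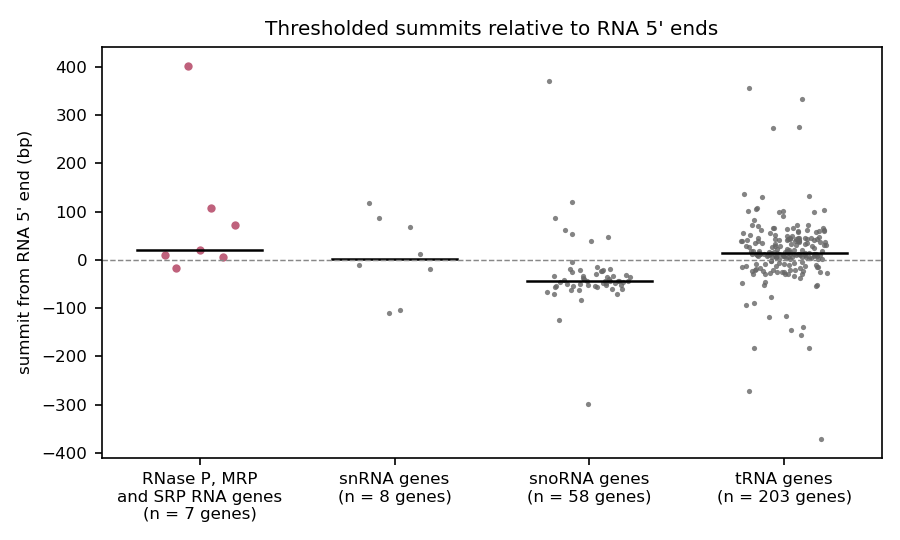
Position of the thresholded summit relative to the annotated RNA 5' end (bp, positive in the direction of transcription). Shown are the 7 RNA genes and the snRNA, snoRNA and tRNA genes with a thresholded region within 200 bp. Each point is a gene and bars are medians, at 20 bp for the 7 genes. The point at 402 bp is srpr-1.1, past the 3' end of its gene.

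The thresholded regions ranked next to those of the 7 genes were a mixture of gene classes. Next to rpr-1 were a region with no gene within 200 bp (signal 595) and one at the cyclin E gene cye-1 and a tRNA gene (582). Next to mrpr-1 were one at a tRNA gene and ZK622.8 (351) and one at the splicing factor gene plrg-1 (348). The neighbours of srpr-2.2 were a region at a tRNA gene (271) and one at uba-5, which encodes an activating enzyme for a ubiquitin-like protein (270). Those of srpr-2.1 were a region at a tRNA gene (211) and one at fbxb-85 and the hexosaminidase gene hex-3 (210). Those of srpr-1.1 were a region at mans-3 (187) and one with no gene within 200 bp (187). Those of srpr-1.2 were regions at pac-1 (149) and at hlh-11, a gene of the basic helix-loop-helix family (148). Those of srpr-3, at the low end, were regions at the collagen gene col-141 (134) and Y44A6D.1 (134).

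None of the motifs searched upstream or at the summit was common to all 7 genes. The 11-base block shown for mrpr-1 occurred with 1 mismatch before rpr-1, at -56 to -46. The block was found by comparing these sequences after their regions were known. Over 150 upstream bases it was also found, on either strand and with any base at the position where the pair differs, at 15 of 46883 other genes (0.0320%). Within 50 bp of the thresholded summits it was found at 3 of 668 (0.449%), which are mrpr-1 itself and 2 others. Nearer to the gene, TATATA stood at -30 to -25 in rpr-1. In mrpr-1 it stood at -34 to -29 and, overlapping, at -32 to -27, followed by an overlapping TATAAA at -30 to -25. TATATA was present in the 150 bases before 16.3% of snRNA genes and 7.63% of protein-coding genes, and TATAAA before 25.4% of protein-coding genes. TATAAA was also found before srpr-2.1, at -103 to -98 and, on the opposite strand, at -105 to -100. In a global alignment the bodies of rpr-1 and mrpr-1 were 50% identical, with a longest exact common run of 9 bases. Against the bodies of the SRP RNA genes, rpr-1 was 49.8 to 52.0% identical, with longest runs of 8 bases. For mrpr-1 against them it was 42.8 to 45.4%, with longest runs of 7 bases. The 150 upstream bases of rpr-1 and mrpr-1 were 53.9% identical, with a longest exact common run of 7 bases. Against those of the SRP RNA genes, upstream identity was 43.8 to 46.3% for rpr-1 and 45.4 to 52.1% for mrpr-1. The longest runs there were 6 or 7 bases.

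The SOX motif was searched on both strands in its 7-base forms, which are A or T, again A or T, then CAA, then A or T, then G. Within 50 bp of the pooled summit it was found at mrpr-1 alone of the 7 genes. There it was ATCAAAG, at -47 to -41, directly after the shared block. Over all thresholded summits 7.04% of windows held a SOX form, and 23.9% of protein-coding genes held one in their 150 upstream bases. In rpr-1 a SOX form lay in the gene body, at bases 87 to 93 on the opposite strand, outside the summit window.

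The letters GTTCGA, the core of the B box of tRNA genes, were in none of the 7 genes, their 150 upstream bases or their summit windows, against 17.2% of all thresholded summit windows. CGCACA was found before rpr-1, at -92 to -87, and in none of the 7 summit windows (16.2% of all summit windows and 3.48% of protein-coding upstream windows). GGGCGG was found in the body of srpr-3, at bases 153 to 158. It was in none of the 7 summit or upstream windows (9.73% of all summit windows and 4.79% of protein-coding upstream windows). No share was counted over the bodies of other genes. All were searched on both strands. A match describes the letters only and is not a site.

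The word GAAAAACC directly before the gene, at -8 to -1, was common to srpr-1.1, srpr-1.2, srpr-2.1 and srpr-2.2 and absent from srpr-3, as the printed starts show. It was picked after the sequences were seen. It was present in the 150 upstream bases of 1.63% of protein-coding genes. Within 50 bp of the thresholded summits it was found at 5 of 668 (0.749%), srpr-1.2 and srpr-2.2 among them. In the last 10 bases of the gene and the 20 bases after it, all 7 genes had a run of 4 to 7 T in a row. Such a run of at least 4 was present in the same window of 53.3% of protein-coding genes. Runs of T are where RNA polymerase III ends transcription.

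Base composition around the summit (50 bp on each side) was 56.4% G and C at rpr-1, 53.5% at mrpr-1, 54.5% at srpr-1.2, 58.4% at srpr-2.1, 52.5% at srpr-2.2 and 59.4% at srpr-3. These 6 values were above the median of all thresholded summits, 51.5%. At srpr-1.1, whose summit lay in the pals-26 exon, it was 39.6%, and 5.39% of the thresholded summits had a lower value.

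The protein partners of these RNAs and the polymerase III machinery were looked at by a list of 47 genes, chiefly protein subunits of SRP, of RNase P and of polymerase III, the factors TFIIIB and TFIIIC and the snRNA-activating complex. The list was filled in part by gene descriptions, and it also holds mafr-1, a repressor of polymerase III, Y37F4.4, described as an SRP docking protein, and mig-2, a Rac GTPase. Of the 47, 34 had a region of any strength in the pooled list within 1 kb of the 5' end, against 48.3% of all protein-coding genes (9643 of 19973). A thresholded region lay there in 2 of the 47, against 2.65% of all protein-coding genes (529 of 19973). At one of them, F37F2.2, the SRP19 gene, the signal was 159 (rank 404 in the pooled list, 403 in replicate 1 and 532 in replicate 2), with its summit at -264 bp from the 5' end. The same region lay within 200 bp of the snoRNA gene F37F2.4 and is also counted among the regions at snoRNA genes above. Its pooled rank lay between those of srpr-1.1 and srpr-1.2. No gene for an RNase P protein or a polymerase III subunit on the list had a thresholded region there. The SRP protein gene srpa-72 had rank 2980, and the RNase P protein gene popl-1 had rank 5235.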

How the data were processed

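Regions from anti-GFP ChIP-seq of 2 biological replicates, 1 library each, were analysed on the ce11 build. Per the deposited README texts, regions were called on each replicate and on both pooled, against a control alignment, and a thresholded list was made by the irreproducible discovery rate, which scores how reproducible ranks are between replicates. Not given in the sources used here are the aligner, the caller, any version, the threshold and the placing of reads with several matches. The signal in the deposited lists (column 7) is the authors' measure of strength per region, and the score in the deposited lists (column 9) is a second value of the authors, used only as an alternative rank, since its scale could not be checked. Neither was scaled between libraries. No control list was analysed here. The ce10 lists were not used, since no ce10 gene models were at hand and coordinates were not converted.

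Gene models came from Ensembl release 115 on WBcel235, which is ce11. A region counted for a gene when within 1000 bp of it, and its position is its summit, counted from 1. For snRNA, snoRNA and tRNA genes, signals and summits were taken within 200 bp. The genes named were all 7, every annotated gene within 1 kb of them, the genes within 200 bp of the regions ranked just above and below, the 3 snRNA, 3 snoRNA and 3 tRNA genes with the strongest region, and listed protein partners with a thresholded region, of which 1 is not reported here; srpa-72 and popl-1 were added with their values in view. The members and lists were chosen with earlier results of these data known, so no test was made and all values are descriptions. The partner list joined listed symbols with 19 genes found by RefSeq description, and 1 symbol matched no gene. Genes were aligned globally with Biopython 1.88. The other tools were matplotlib 3.10.9, scipy 1.17.1, pandas 2.3.3, numpy 2.4.6 and Python 3.11.15, and distances and ranks were tested on simulated data. Alternatives were other distances, the stronger part of the list, other position and rank measures, RefSeq gene ends and each replicate alone.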

Additional observations from a re-analysis of the deposited data

How the results depend on the processing

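All 7 genes kept a thresholded region within 500 bp and within 200 bp, 6 had one that overlapped the gene, and 5 had one in the stronger 334 of the list. With 1 replicate left out the count was 5 to 6. The share of all genes was 3.61%, and it was 3.01% within 500 bp, 2.55% within 200 bp, 2.04% for overlap, 1.99% with the stronger 334 regions and 3.41 to 3.49% with 1 replicate left out. The count of 5 genes with a region among the strongest of both replicates was 4 with the strongest 334. The median summit of 20 bp inside the gene was 7 to 106 bp with 1 replicate left out. It was 106 bp without replicate 2. The median rank of 243 was 249 to 257 with 1 replicate left out and 284 by the authors' score. The summit of srpr-2.2 was at 5 bp in the pooled list and at -1 to 196 bp with 1 replicate left out, and that of srpr-3 at 72 bp and at -19 to 106 bp. The cause was not tested. The count of 2 partner genes did not change under the alternatives run. No paired analysis was possible because all libraries form 1 group. With 2 libraries, no read counts and no control list, neither sampling error nor background that the control did not remove can be measured, and a region is not known to be direct binding.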

Other observations

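Among the 15 other genes with the 11-base block of mrpr-1 and rpr-1 upstream, 6 were snoRNA genes, out of 346, and none were among the 129 snRNA genes or the tRNA genes. A thresholded region lay within 200 bp of 2.55% of all genes and of 16.8% of all snoRNA genes. Such a region lay that close to 3 of the 15. These were the snoRNA gene F59C6.15 (signal 182, rank 322, summit at -43 bp), the snoRNA gene F25H2.15 (signal 135, rank 602, summit at 87 bp) and the non-coding RNA gene lfor-1 (signal 169, rank 361, summit at 666 bp). The region near lfor-1 also lay at the tRNA gene WBGene00014283, with its summit at -11 bp from the 5' end of that gene. The other 4 snoRNA genes with the block had weaker regions in the pooled list, at rank 1062 for T26A8.6, rank 2120 for T06D8.11, rank 2540 for Y67A10A.14 and rank 4742 for Y55F3BR.9. These genes were chosen by the block after it was seen, and no test was made.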
